A study of Mus musculus with 9 samples.

Results

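The genes described here are 44 interferon-stimulated and antigen presentation genes of the mouse, followed across cardiosphere-derived cells of the epicardium in 3 states. They were taken by symbol from a list of 7 roles (RNA and Z-nucleic acid sensors, transcription factors, antiviral effectors, ISG15, ubiquitin and ADP-ribose enzymes, other induced genes, GTPases, and class I antigen presentation), and all 44 were found among the 54532 genes of the deposited table. All 44 had enough counts to be tested in at least 1 of the 3 comparisons. RNA sequencing was done on 9 libraries from C57BL/6 mice, 3 per group. The primary cells (pECDCs) came from explant culture of the heart ventricle. The immortalized cells (iECDCs) carried the human telomerase gene hTERT and were taken at passage 30. The SB431542-treated cells were, per the labels, the immortalized cells at passage 30 kept for 3 days with SB431542, which blocks the kinase of the type I receptor for TGF-β. The study's methods describe the hTERT gene as delivered by lentivirus with puromycin selection, and describe the cells given SB431542 as an epithelial clone derived from pECDCs, which the labels do not. The grouping here follows the labels. The human hTERT transgene is not a feature of this mouse gene table and was not checked. Both groups at passage 30 differ from the pECDCs in passage as well as in hTERT, and these cannot be told apart. The study's methods call its replicates biological, but give another number per condition than the 3 libraries here. Its legend for RNA sequencing of pECDCs and iECDCs gives n = 3. The sources do not say whether the libraries came from separate cultures or mice. The p-values below measure the spread between libraries, which may in part be technical.

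Interferons are secreted proteins that bind receptors on most nucleated cells and act through the kinases JAK1, TYK2 and JAK2. Type I interferons bring STAT2 and IRF9 into a complex that binds the interferon-stimulated response element (ISRE), and interferon γ acts through the γ-activated site (GAS). The genes so induced encode sensors of foreign RNA, proteins that block viral replication, and the machinery that cuts and loads peptides onto class I molecules for display to T cells. Many of these genes are also held at a basal level in unstimulated fibroblast-like cells.

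Total counts ran from 16568306 in iECDC 3 to 23951392 in pECDC 1. No 2 libraries of a group were the same within sampling noise, with chi-square per degree of freedom between 2.70 and 4.61 for most pairs. The exceptions were iECDC 3, at 30.8 and 24.9 against the other iECDC libraries, and SB431542 2, at 71.5 and 70.3 against the other SB431542 libraries. Counts of members called are given with and without these libraries. For genes outside the members this was done for some lists and genes only. Markers of cardiosphere-derived cells (Eng, Thy1, Ly6a, Tbx18 and Gata4) were all present, with summed levels of 272 to 276 FPKM (fragments scaled to transcript length and to library size) in pECDCs, 290 to 321 in iECDCs and 306 to 332 in SB431542-treated cells. Of the blood cell markers, Ptprc had 0 to 4 counts in every library and Adgre1 had 0, while the 10 measured macrophage and monocyte markers summed to 11.9 to 13.4, 11.2 to 16.1 and 16.0 to 17.7 FPKM, most of it from Cd14 and Csf1r. The lymphocyte and dendritic cell list reached at most 0.235 FPKM and the endothelial list at most 0.165 FPKM in sum. The 8 mesothelial and epithelial markers summed to 18.7 to 19.9, 29.0 to 31.5 and 24.9 to 39.8 FPKM. In bulk RNA, fewer cells of a type and less RNA per cell cannot be told apart.

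The upstream sequences of 6 members are shown because they carry the response elements just described and belong to members of each pattern described below: lower in iECDCs (Isg15), lower in SB431542-treated cells (Oas1a and Bst2), higher in them (Irf1), or far lower in 1 treated library than in the others (Ifit3 and Gbp7). Each is the 200 bases before the RefSeq transcription start (GRCm38.p6), 5′ to 3′ on the gene's strand, and none overlaps an annotated exon. Capitals mark matches to an ISRE-like motif (TTTC repeated after 2 bases of any kind, which reads as GAAA repeated after 2 bases on the other strand) or a GAS-like motif (TTCNNNGAA, the same on both strands, where N is any base). Isg15 lies on the minus strand of chr4:156200819-156201018, and its 3 overlapping ISRE-like matches begin at -78, -72 and -66 from the start. Oas1a, on the minus strand of chr5:120907526-120907725, has 2 overlapping ISRE-like matches at -20 and -14 and a GAS-like match at -98. Bst2, on the minus strand of chr8:71537473-71537672, has ISRE-like matches at -130 and -124 that overlap a GAS-like match at -136. Irf1, on the plus strand of chr11:53769814-53770013, has a single GAS-like match at -90. Ifit3, on the plus strand of chr19:34583329-34583528, has ISRE-like matches at -156 and -122. Gbp7, on the plus strand of chr3:142530136-142530335, has an ISRE-like match at -53 and GAS-like matches at -106 and -87.
Isg15: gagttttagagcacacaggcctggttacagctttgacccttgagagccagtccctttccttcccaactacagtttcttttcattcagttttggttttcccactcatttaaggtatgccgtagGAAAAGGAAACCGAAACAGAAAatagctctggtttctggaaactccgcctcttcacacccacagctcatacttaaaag
Oas1a: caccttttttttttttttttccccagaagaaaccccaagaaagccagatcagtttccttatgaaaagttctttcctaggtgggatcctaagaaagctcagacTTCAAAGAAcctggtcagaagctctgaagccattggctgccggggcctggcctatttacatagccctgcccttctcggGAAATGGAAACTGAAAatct
Bst2: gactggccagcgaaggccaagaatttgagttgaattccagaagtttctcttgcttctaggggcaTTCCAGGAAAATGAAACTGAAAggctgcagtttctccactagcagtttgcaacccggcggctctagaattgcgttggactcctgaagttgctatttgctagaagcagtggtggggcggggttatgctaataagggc
Irf1: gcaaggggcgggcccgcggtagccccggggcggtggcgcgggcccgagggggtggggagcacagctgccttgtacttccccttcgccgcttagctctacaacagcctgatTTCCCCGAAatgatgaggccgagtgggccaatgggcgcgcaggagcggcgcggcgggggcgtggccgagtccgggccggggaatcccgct
Ifit3: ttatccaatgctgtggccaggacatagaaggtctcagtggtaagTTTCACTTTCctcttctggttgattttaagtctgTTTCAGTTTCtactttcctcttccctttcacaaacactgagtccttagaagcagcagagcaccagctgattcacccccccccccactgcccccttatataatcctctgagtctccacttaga
Gbp7: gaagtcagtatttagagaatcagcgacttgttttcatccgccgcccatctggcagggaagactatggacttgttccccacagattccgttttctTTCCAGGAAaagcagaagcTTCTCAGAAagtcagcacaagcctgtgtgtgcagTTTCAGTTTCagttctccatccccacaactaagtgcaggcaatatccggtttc

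Across the members, 34 of 44 had a RefSeq promoter of 250 bases before to 50 after the start. The ISRE-like motif was in 15 of these 34 (44.1%), against 3.99% of the 27025 genes with a promoter of that length. The GAS-like motif was in 9 of 34 (26.5%), against 9.55%. The ISRE-like motif was in all 5 GTPase promoters (Gbp2, Gbp3, Gbp7, Igtp and Irgm1) and in 5 of the 9 promoters of antiviral effectors, but in only 1 of 8 class I antigen presentation promoters, that of B2m. The members were listed as interferon-stimulated and antigen presentation genes, so these shares describe the list and are not a test. A match is a string of letters and not a measured binding site.

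The members were spread over 15 chromosomes, and 17 of the 44 lay within 100 kb of another member. The largest group was in the major histocompatibility complex on chromosome 17, where Psmb9, Tap1, Psmb8 and Tap2 follow each other and Tapbp and H2-K1 are neighbours. The other groups were Gbp7, Gbp3 and Gbp2 on chromosome 3, Ifit2, Ifit3 and Ifit1 on chromosome 19, Parp14, Dtx3l and Parp9 on chromosome 16, and Rsad2 and Cmpk2 on chromosome 12. The sources do not say whether counting used strand, and 20 of the 44 overlap another gene, so their counts are less certain. Among them, Igtp shares 7974 bases with Irgm2 on the same strand, and B2m lies inside Patl2 on the opposite strand. Reads of close relatives (H2-K1 and H2-D1, the Gbp, Ifit and Oas families) may also have been split between them.

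**Figure D1:**
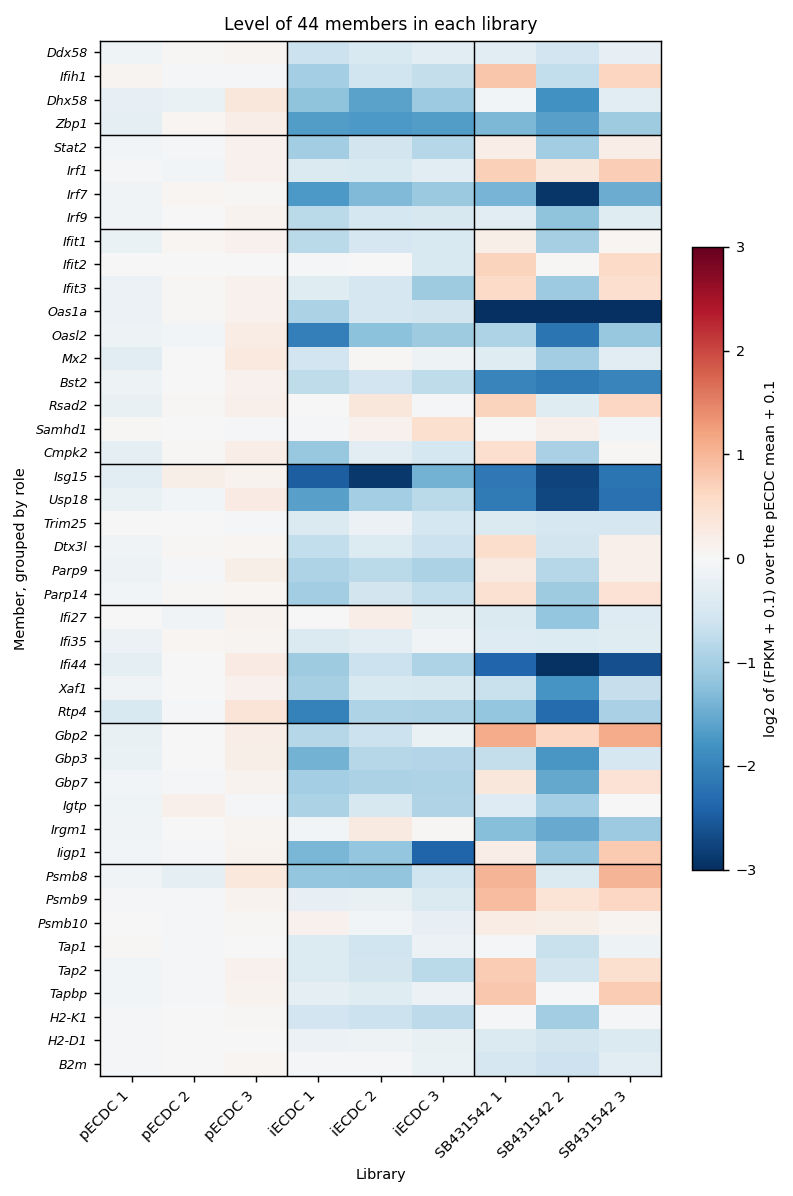
Level of each of the 44 members (rows, grouped by role) in each of the 9 libraries (columns), as log2 of (FPKM + 0.1) over the pECDC mean + 0.1; the colour scale ends at -3 and 3. Most rows are blue (lower) in the 3 iECDC libraries, and SB431542 2 is bluer than SB431542 1 and 3 in most rows.

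Immortalization and passage were addressed by iECDCs against pECDCs. In iECDCs, 32 of the 43 members tested were lower, 0 were higher and 11 did not pass the test (edgeR, adjusted p under 0.05), with a median log2 fold change of -0.68. None was higher at an unadjusted p under 0.05 (0 of 43), by DESeq2 (0) or by limma on FPKM (0). Across all 13752 genes tested, 9.21% were lower and 7.21% were higher, and the median was -0.00. The groups did not overlap, with all 3 iECDC libraries below all 3 pECDC libraries, for 34 of the 43, against 20.4% of all genes. The single libraries were alike in this. iECDC 1, 2 and 3 lay below every pECDC library in 39, 37 and 37 of the 43 members, against 37.8%, 38.7% and 42.8% of all genes. Without iECDC 3, 35 members were lower (background 16.2%). The count was 26 without iECDC 1 (background 8.22%) or iECDC 2 (background 7.52%). It was 25, 22 and 18 without pECDC 1, 2 and 3, where the background fell to 4.92%, 4.82% and 4.95%. In these 6 fits 0 members were higher, where the background for higher genes was 6.97%, 5.48% and 15.5% without iECDC 1, 2 and 3 and 2.63%, 2.57% and 2.68% without pECDC 1, 2 and 3. Of the 32 members, 18 were called lower in each of the 6. Among the marker genes tested, Eng (0.35), 1 of 5 cardiosphere markers, Krt19 (0.64), the 1 mesothelial and epithelial marker tested, and Lyz2 (2.55), 1 of 4 macrophage markers, were higher in iECDCs, and their part in the members' result was not tested. When the SB431542 libraries entered the same fit, 8 members were lower (background 3.26%) and 0 higher (background 1.46%).

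**Figure D2:**
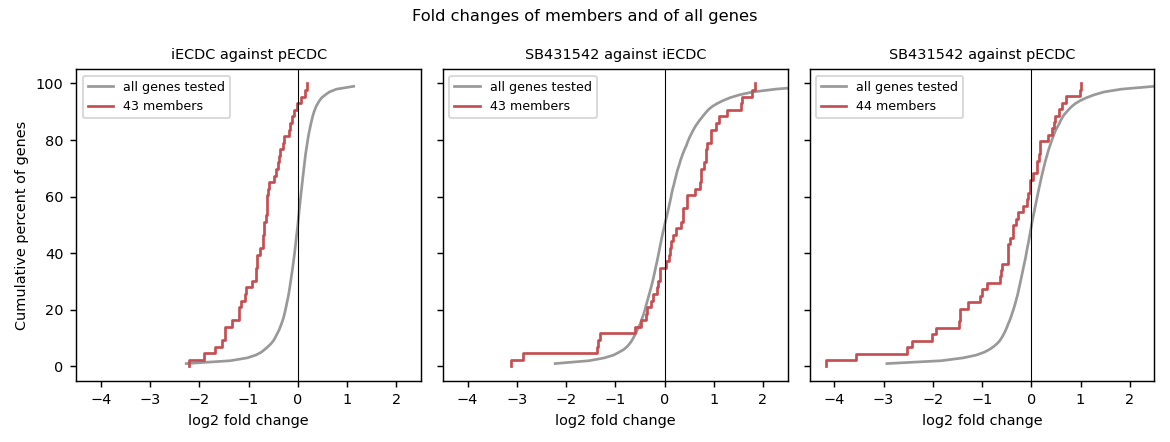
Cumulative percent of genes (vertical axis) at or below each log2 fold change (horizontal axis) for the members (red) and all genes tested (grey) in the 3 comparisons. The member curve lies left of the grey curve in iECDCs against pECDCs, where the medians are -0.68 and -0.00.

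All 4 sensors were lower in iECDCs. In the values that follow, the libraries stand in the order 1, 2 and 3. Zbp1, which binds Z-form nucleic acids and can trigger necroptosis, was at 1.36, 1.78 and 1.98 FPKM in pECDCs and at 0.463, 0.448 and 0.461 FPKM in iECDCs, a log2 fold change of -1.91 ± 0.20 (SE, edgeR adjusted p = 0.000327). Dhx58 (LGP2), a regulator of the RNA helicase sensors, was at 1.02, 1.06 and 1.58 FPKM and 0.469, 0.335 and 0.517 FPKM, a log2 fold change of -1.48 ± 0.25 (SE, edgeR adjusted p = 0.0049). Ifih1 (MDA5), a sensor of long double-stranded RNA, was at 1.52, 1.40 and 1.35 FPKM and 0.655, 0.902 and 0.829 FPKM, a log2 fold change of -0.86 ± 0.14 (SE, edgeR adjusted p = 0.0034). The 3 iECDC libraries of Zbp1 had an SD of 0.00811 FPKM, and every iECDC library of these 3 genes lay below the lowest pECDC library. Ddx58 (RIG-I), which recognizes RNA with a triphosphate end, changed least, from 7.13, 7.98 and 8.15 FPKM to 4.95, 5.58 and 6.20 FPKM, a log2 fold change of -0.49 ± 0.09 (SE, edgeR adjusted p = 0.00802). The groups did not overlap for Ddx58 either, and each of the 4 calls was kept in all 6 fits that left out a library.

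The 4 transcription factors were also all lower. Irf7, which amplifies transcription of the type I interferon genes, was at 2.47, 2.81 and 2.74 FPKM in pECDCs and 0.735, 1.01 and 1.19 FPKM in iECDCs, a log2 fold change of -1.48 ± 0.17 (SE, edgeR adjusted p = 0.000633). Stat2 was at 5.57, 5.70 and 6.53 FPKM and 2.84, 4.01 and 3.22 FPKM, a log2 fold change of -0.84 ± 0.13 (SE, edgeR adjusted p = 0.00264). Its partner Irf9 was at 5.13, 5.41 and 5.96 FPKM and 3.09, 3.76 and 3.94 FPKM, a log2 fold change of -0.63 ± 0.11 (SE, edgeR adjusted p = 0.00467). Both genes encode parts of the ISRE-binding complex. Irf1, the factor with the GAS-like match shown above, was at 5.75, 5.60 and 6.54 FPKM and 4.40, 4.28 and 4.66 FPKM, a log2 fold change of -0.44 ± 0.09 (SE, edgeR adjusted p = 0.0117). Irf1 was called in 5 of the 6 fits that left out a library, and the others in all 6.

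The largest change was that of Isg15, a ubiquitin-like protein that is joined to other proteins after interferon exposure. It was at 6.63, 9.57 and 9.01 FPKM in pECDCs and at 1.44, 1.05 and 3.10 FPKM in iECDCs, a log2 fold change of -2.21 ± 0.32 (SE, edgeR adjusted p = 0.00212). All 6 members of its role were lower. Usp18, which removes ISG15 from proteins and damps the type I receptor, was at 2.84, 3.08 and 3.93 FPKM and 0.994, 1.57 and 1.82 FPKM, a log2 fold change of -1.20 ± 0.22 (SE, edgeR adjusted p = 0.00669). Parp9 and Dtx3l encode partners in one complex and are neighbours on chromosome 16. Parp9 was at 4.19, 4.58 and 5.32 FPKM and 2.41, 2.63 and 2.38 FPKM, a log2 fold change of -0.94 ± 0.11 (SE, edgeR adjusted p = 0.000701). Dtx3l was at 2.71, 3.04 and 3.09 FPKM and 1.72, 2.21 and 1.85 FPKM, a log2 fold change of -0.63 ± 0.12 (SE, edgeR adjusted p = 0.00744). Parp14, an ADP-ribosyl transferase next to them, was at 1.60, 1.73 and 1.76 FPKM and 0.772, 1.12 and 0.972 FPKM, a log2 fold change of -0.85 ± 0.14 (SE, edgeR adjusted p = 0.00377). The iECDC libraries of these 3 neighbours all lay below the lowest pECDC library. Trim25, the ubiquitin ligase that modifies RIG-I, was at 12.2, 12.1 and 11.8 FPKM and 8.89, 10.6 and 8.31 FPKM, a log2 fold change of -0.39 ± 0.09 (SE, edgeR adjusted p = 0.0189). Its call was kept in 2 of the 6 fits that left out a library.

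**Figure D3:**
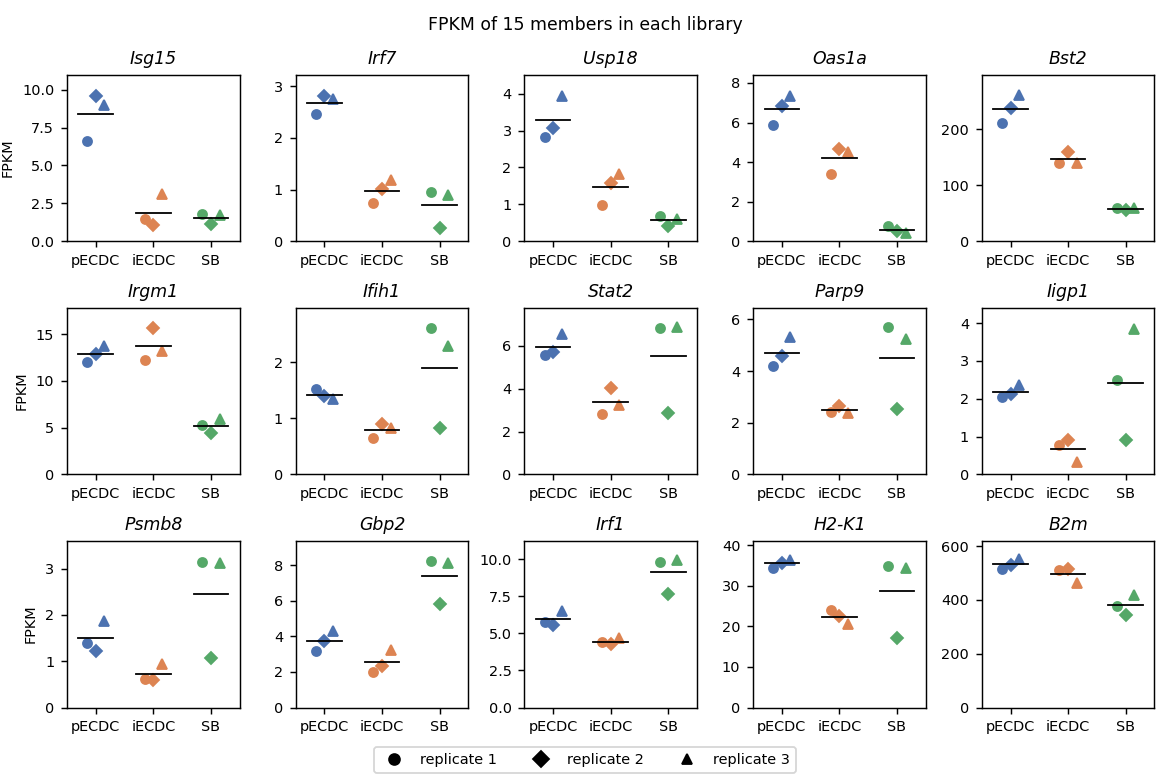
FPKM (vertical axes, from 0) of 15 members in each library; circles, diamonds and triangles are replicates 1, 2 and 3, and the bar is the mean of 3 libraries. Isg15 falls from a mean of 8.40 in pECDCs to 1.86 in iECDCs, Bst2 and Oas1a are lowest in SB431542-treated cells, and Ifih1, Stat2, Parp9, Psmb8 and H2-K1 have SB431542 2 far below SB431542 1 and 3.

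The antiviral effectors were divided, with 5 of 10 lower in iECDCs. Oasl2, of the oligoadenylate synthetase family, was at 1.74, 1.85 and 2.28 FPKM in pECDCs and 0.396, 0.783 and 0.878 FPKM in iECDCs, a log2 fold change of -1.55 ± 0.25 (SE, edgeR adjusted p = 0.00331). Bst2 (tetherin), which holds budding virus at the cell surface, was the most abundant effector. It was at 212, 237 and 260.0 FPKM and 139, 159 and 139.8 FPKM, a log2 fold change of -0.71 ± 0.09 (SE, edgeR adjusted p = 0.00105). Oas1a, whose product activates RNase L, was at 5.88, 6.82 and 7.32 FPKM and 3.39, 4.68 and 4.52 FPKM, a log2 fold change of -0.69 ± 0.15 (SE, edgeR adjusted p = 0.0138). Ifit3 was at 3.76, 4.35 and 4.66 FPKM and 3.26, 2.96 and 1.98 FPKM, a log2 fold change of -0.64 ± 0.19 (SE, edgeR adjusted p = 0.0488). Ifit1, which binds foreign RNA ends, was at 2.04, 2.48 and 2.61 FPKM and 1.32, 1.65 and 1.69 FPKM, a log2 fold change of -0.63 ± 0.16 (SE, edgeR adjusted p = 0.0279). The calls of Ifit1 and Ifit3 were each kept in 2 of the 6 fits that left out a library and that of Oas1a in 4, while Oasl2 and Bst2 kept theirs in all 6. The 5 effectors not called were Ifit2 (-0.17), Mx2 (-0.37), Rsad2 (0.14), Samhd1 (0.19) and Cmpk2 (-0.76), in log2 fold change. Mx2, annotated as a polymorphic pseudogene, Rsad2 and Cmpk2 were under 1 FPKM in every group mean.

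Of the other induced genes, 3 of 5 were lower. Rtp4, a chaperone of receptors, was at 1.95, 2.59 and 3.54 FPKM in pECDCs and 0.581, 1.37 and 1.34 FPKM in iECDCs, a log2 fold change of -1.34 ± 0.32 (SE, edgeR adjusted p = 0.0231). Xaf1, an antagonist of the apoptosis inhibitor XIAP, was at 1.48, 1.57 and 1.74 FPKM and 0.750, 1.13 and 1.11 FPKM, a log2 fold change of -0.71 ± 0.17 (SE, edgeR adjusted p = 0.0237). Both lost their call when 1 library was left out, Rtp4 in 2 and Xaf1 in 3 of the 6 fits. Ifi44 was low throughout, with group means of 0.801 ± 0.157 and 0.393 ± 0.0749 FPKM (SD, n = 3), a log2 fold change of -1.05 ± 0.21 (SE, edgeR adjusted p = 0.0102). Ifi27 stayed near 78.5 FPKM in both group means (log2 fold change -0.01), and Ifi35 did not pass the test (-0.30).

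Among the GTPases, 4 of 6 were lower. Iigp1, an immunity-related GTPase that acts on the vacuoles of intracellular parasites, was at 2.04, 2.12 and 2.36 FPKM in pECDCs and 0.778, 0.916 and 0.334 FPKM in iECDCs, a log2 fold change of -1.68 ± 0.27 (SE, edgeR adjusted p = 0.0034). Gbp3, a guanylate-binding protein, was at 1.09, 1.28 and 1.43 FPKM and 0.410, 0.652 and 0.638 FPKM, a log2 fold change of -1.19 ± 0.22 (SE, edgeR adjusted p = 0.00689). Its neighbour Gbp7 had means of 0.833 ± 0.0601 and 0.378 ± 0.0162 FPKM (SD, n = 3), a log2 fold change of -1.15 ± 0.16 (SE, edgeR adjusted p = 0.00149). Igtp was at 2.26, 2.76 and 2.41 FPKM and 1.22, 1.74 and 1.29 FPKM, a log2 fold change of -0.82 ± 0.18 (SE, edgeR adjusted p = 0.0158). Iigp1 was lowest in iECDC 3, and Gbp3, Gbp7 and Igtp were lowest in iECDC 1. Igtp kept its call in 4 of the 6 fits that left out a library, and the other 3 kept theirs in all 6. Gbp2 overlapped between the groups and did not pass the test (log2 fold change -0.58). Irgm1, an immunity-related GTPase tied to autophagy, was at 12.9 ± 0.848 and 13.7 ± 1.77 FPKM (SD, n = 3), with a log2 fold change of 0.07 ± 0.10 (SE).

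In class I antigen presentation, 6 of the 8 members tested were lower, and the median log2 fold change was -0.35, against -0.63 to -1.17 in the other roles. Psmb8, a catalytic subunit of the immunoproteasome that cuts proteins into peptides, was at 1.39, 1.23 and 1.88 FPKM in pECDCs and 0.616, 0.600 and 0.951 FPKM in iECDCs, a log2 fold change of -1.08 ± 0.24 (SE, edgeR adjusted p = 0.017). H2-K1, a class I heavy chain, was at 34.5, 35.7 and 36.4 FPKM and 24, 22.7 and 20.6 FPKM, a log2 fold change of -0.68 ± 0.07 (SE, edgeR adjusted p = 0.000391). Tap2, of the transporter that brings peptides into the endoplasmic reticulum, was at 4.58, 4.77 and 5.33 FPKM and 3.64, 3.31 and 2.74 FPKM, a log2 fold change of -0.61 ± 0.12 (SE, edgeR adjusted p = 0.0105). H2-K1 kept its call in all 6 fits that left out a library, Tap2 in 5 and Psmb8 in 2. Tap1, the other chain of the transporter, was at 4.0, 3.78 and 3.87 FPKM and 2.88, 2.53 and 3.45 FPKM, a log2 fold change of -0.41 ± 0.11 (SE, edgeR adjusted p = 0.0377). Tapbp (tapasin), which bridges the transporter and the class I molecule, was at 12.8, 13.4 and 14.7 FPKM and 11.1, 10.5 and 12.0 FPKM, a log2 fold change of -0.29 ± 0.08 (SE, edgeR adjusted p = 0.0385). H2-D1, the other heavy chain, was at 74.9, 76.8 and 77.2 FPKM and 67.8, 68.8 and 65.5 FPKM, a log2 fold change of -0.19 ± 0.06 (SE, edgeR adjusted p = 0.0488). These 3 calls were each kept in 1 of the 6 fits only. B2m, the light chain shared by all class I molecules, was at 532 ± 19.7 and 496 ± 29.4 FPKM (SD, n = 3) and did not pass the test (log2 fold change -0.11), nor did Psmb10 (-0.07). Psmb9, with at most 0.152 FPKM in these libraries, was too low to be tested.

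**Figure D4:**
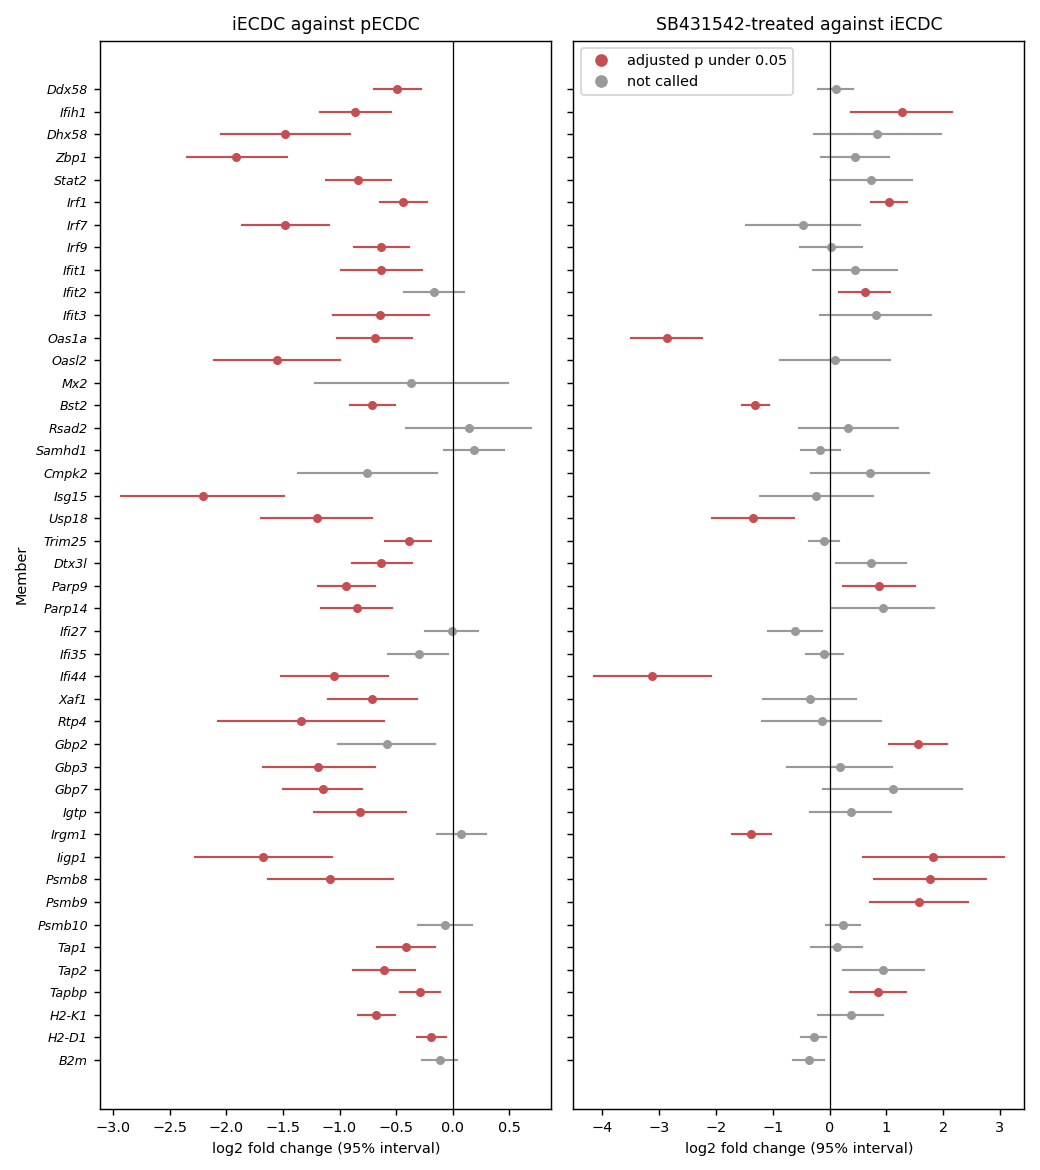
Log2 fold change of each member with its 95% interval, in iECDCs against pECDCs (left) and SB431542-treated cells against iECDCs (right); red points have an adjusted p under 0.05. On the left 32 red points lie below 0 and 0 above, and on the right 9 lie above and 5 below, with wider intervals.

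By the labels, SB431542-treated cells against iECDCs addressed the 3 days of SB431542. If the treated cells were instead the pECDC-derived clone of the study's methods, the groups could also differ in hTERT and passage. Here 9 of the 43 members tested were higher (background 16.0%), 5 were lower (background 14.0%) and 29 did not pass the test. The members' median log2 fold change was 0.33, and that of all 13559 genes tested was 0.00. These shares are near the background. This comparison and the one before share the iECDC libraries, and each one's values are given on its own.

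The count of higher members moved with each library that was left out, and SB431542 2 stood apart from the other treated libraries. It was the lowest of the 3 treated libraries in 40 of the 44 members (90.9%), against 43.2% of all genes. In 21 members it was over 2-fold below the mean of SB431542 1 and 3, against 5.47% of all genes, and its median log2 ratio to them was -0.89 over the members and -0.00 over all genes. SB431542 1 lay above every iECDC library in 28 of 43 members and SB431542 3 in 26, against 39.5% and 39.3% of all genes, while SB431542 2 did so in 8 and lay below every iECDC library in 23 (33.6% of all genes). Without SB431542 2, 19 members were higher (background 25.3%) and 8 lower (background 24.8%), and without both it and iECDC 3, 24 were higher (background 32.6%) and 8 lower (background 31.9%). Without SB431542 1, SB431542 3, iECDC 1 or iECDC 2, 2 were higher, and the background fell with them, to 7.68%, 8.14%, 7.07% and 7.47%. Without iECDC 3, 3 were higher (background 13.5%). The lower members numbered 5, 5, 5, 4 and 6 in these 5 fits, against backgrounds of 5.13%, 5.55%, 5.19%, 5.31% and 11.9%. SB431542 2 also stood apart over all genes, and what sets it apart was not tested. Markers of other kinds moved with the treated group too. Of the 3 mesothelial and epithelial markers tested, Upk3b (log2 fold change 3.45) and Wt1 (4.40) were higher than in iECDCs and Krt19 was not called (-0.09), while the other 5 of the list were too low to be tested. Upk3b was at 1.16, 1.31 and 1.36 FPKM in treated libraries 1, 2 and 3 and Wt1 at 0.396, 0.107 and 0.348 FPKM. Ly6a, 1 of the 5 cardiosphere markers, was higher too (2.25), at 7.11, 6.51 and 5.08 FPKM in iECDCs and 35.3, 16.2 and 37.0 FPKM in treated cells. Of the 4 macrophage markers tested, Cd14 was higher (0.80) and Lyz2 lower (-0.95). The part of these genes in the members' result was not tested. Among the pECDC libraries, pECDC 1 was lowest in 35 of 44 members (34.0% of all genes) and pECDC 3 highest in 37 (35.5%), with median log2 ratios of -0.16 and 0.19 to the other pECDC libraries.

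Irf1 and Gbp2 were the 2 members that stayed higher in all 6 fits that left out a library. Irf1 was at 9.81, 7.63 and 9.94 FPKM in SB431542-treated cells, a log2 fold change of 1.05 ± 0.14 (SE, edgeR adjusted p = 0.00199). Gbp2 was at 2.01, 2.35 and 3.26 FPKM in iECDCs and 8.20, 5.80 and 8.14 FPKM in treated cells, a log2 fold change of 1.56 ± 0.22 (SE, edgeR adjusted p = 0.00284). In both genes every treated library, SB431542 2 included, lay above every iECDC library. Both were also above pECDCs, with log2 fold changes of 0.62 ± 0.13 (SE, adjusted p = 0.0107, edgeR) for Irf1 and 0.99 ± 0.18 (SE, adjusted p = 0.00625, edgeR) for Gbp2. The pECDC libraries of Gbp2 were at 3.19, 3.73 and 4.27 FPKM. The call of Irf1 against pECDCs was kept in 4 of the 6 fits that left out a library and that of Gbp2 in all 6.

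Like Irf1 and Gbp2, the other 7 higher members each had SB431542 2 as the lowest treated library. Iigp1 was at 2.50, 0.899 and 3.83 FPKM in treated cells, a log2 fold change of 1.83 ± 0.54 (SE, edgeR adjusted p = 0.0364), and overlapped with iECDCs. Ifih1 was at 2.61, 0.821 and 2.28 FPKM, a log2 fold change of 1.27 ± 0.39 (SE, edgeR adjusted p = 0.0405), with SB431542 2 at 0.34 of the mean of the other treated libraries in CPM, counts scaled to library size. Parp9 was at 5.70, 2.55 and 5.24 FPKM, a log2 fold change of 0.87 ± 0.28 (SE, edgeR adjusted p = 0.0464), and there the ratio was 0.47. In Iigp1 and Ifih1, treated libraries 1 and 3 lay above every pECDC and iECDC library. Ifit2 was at 10.8, 10.8 and 11 FPKM in pECDCs, 10.5, 10.9 and 7.82 FPKM in iECDCs and 17.2, 11.1 and 16.2 FPKM in treated cells, a log2 fold change of 0.62 ± 0.19 (SE, edgeR adjusted p = 0.0444). Psmb8 was at 3.15, 1.08 and 3.12 FPKM, a log2 fold change of 1.77 ± 0.43 (SE, edgeR adjusted p = 0.018), and Tapbp was at 24.1, 13.2 and 23.1 FPKM, a log2 fold change of 0.85 ± 0.22 (SE, edgeR adjusted p = 0.0215). For these genes the treated libraries did not overlap with iECDCs. Psmb9 had means of 0.0886 ± 0.0153 FPKM in iECDCs and 0.269 ± 0.0683 FPKM in treated cells (SD, n = 3), a log2 fold change of 1.58 ± 0.37 (SE, edgeR adjusted p = 0.017). Psmb8 kept its call in 2 of the 6 fits that left out a library, and Ifih1, Ifit2, Iigp1, Parp9, Psmb9 and Tapbp each kept theirs in 1.

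In 3 of the 5 lower members, SB431542 2 lay near the other treated libraries. Oas1a was at 0.756, 0.504 and 0.440 FPKM in treated cells, a log2 fold change of -2.87 ± 0.27 (SE, edgeR adjusted p = 0.000703). Bst2 was at 60.1, 55.2 and 60.1 FPKM, a log2 fold change of -1.31 ± 0.11 (SE, edgeR adjusted p = 0.000395). Irgm1 was at 12.0, 12.9 and 13.7 FPKM in pECDCs, 12.2, 15.7 and 13.2 FPKM in iECDCs and 5.29, 4.44 and 5.95 FPKM in treated cells, a log2 fold change of -1.38 ± 0.15 (SE, edgeR adjusted p = 0.00102). In CPM, SB431542 2 was at 0.85, 0.92 and 0.79 of the mean of the other treated libraries in these 3. Usp18 was at 0.674, 0.409 and 0.615 FPKM, a log2 fold change of -1.35 ± 0.31 (SE, edgeR adjusted p = 0.0155). Ifi44 fell to 0.0450 ± 0.0295 FPKM (SD, n = 3), a log2 fold change of -3.12 ± 0.45 (SE, edgeR adjusted p = 0.00284), on 8, 2 and 5 counts in treated libraries 1, 2 and 3. Oas1a, Bst2, Irgm1 and Ifi44 kept their calls in all 6 fits that left out a library and Usp18 in 5. Of these 5 members, Oas1a and Bst2 had ISRE-like and GAS-like matches, as shown above, and Irgm1 had 2 ISRE-like matches. Ifi44 had 0 matches and Usp18 had no RefSeq promoter. Gbp7 and Igtp, which were not called, also had both kinds of match. Whether motifs go with the direction of change was not tested.

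Among the members lower in iECDCs but not called in SB431542-treated cells against iECDCs, the spread between the treated libraries varied. Trim25, H2-D1 and Ddx58 had SB431542 2 at 0.97, 0.93 and 0.81 of the mean of the other treated libraries in CPM, and the others had it at 0.20 to 0.70. Stat2 was at 6.85, 2.85 and 6.87 FPKM in treated libraries 1, 2 and 3, and H2-K1 was at 34.8, 17.1 and 34.3 FPKM. Ifit3 was at 6.37, 1.93 and 6.12 FPKM, Ifit1 at 2.68, 1.15 and 2.50 FPKM and Tap2 at 8.33, 3.29 and 6.92 FPKM. In each of these genes SB431542 2 lay below the lowest pECDC library, while SB431542 1 and 3 lay above the pECDC mean in all but H2-K1. Parp14 was at 2.35, 0.756 and 2.34 FPKM and Dtx3l at 4.28, 1.98 and 3.28 FPKM. Gbp7, with its 3 motif matches, was at 1.08, 0.220 and 1.15 FPKM, and its ratio of 0.20 was the lowest of the 44 members. Dhx58 was at 1.15, 0.276 and 0.947 FPKM, Igtp at 1.86, 1.18 and 2.44 FPKM, Gbp3 at 0.734, 0.306 and 0.864 FPKM and Irf9 at 4.33, 2.34 and 4.22 FPKM. Tap1 was at 3.71, 2.40 and 3.50 FPKM. Without SB431542 2, Dhx58, Stat2, Ifit1, Ifit3, Cmpk2, Dtx3l, Parp14, Gbp7, Tap2 and H2-K1 joined the higher members, and Ifi27, H2-D1 and B2m joined the lower.

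SB431542-treated cells against pECDCs compared the treated passage 30 cells with the primary cells and shares libraries with both comparisons above. Of the 44 members, 17 were lower (background 17.0%), 3 were higher (background 17.9%) and 24 did not pass the test, with a median log2 fold change of -0.33 against 0.01 for all 14015 genes tested. Ifi44 had the largest change, a log2 fold change of -4.16 ± 0.41 (SE, edgeR adjusted p = 0.000803). Oas1a followed with a log2 fold change of -3.55 ± 0.21 (SE, edgeR adjusted p = 0.000135), and Usp18 with a log2 fold change of -2.53 ± 0.23 (SE, edgeR adjusted p = 0.000644). Isg15 was at 1.81, 1.13 and 1.76 FPKM in treated cells, a log2 fold change of -2.42 ± 0.25 (SE, edgeR adjusted p = 0.00095), and Bst2 was lower with a log2 fold change of -2.01 ± 0.10 (SE, edgeR adjusted p = 7.31e-05). Irf7 was at 0.951, 0.264 and 0.894 FPKM, a log2 fold change of -1.93 ± 0.39 (SE, edgeR adjusted p = 0.01), and Zbp1 at 0.614, 0.485 and 0.768 FPKM, a log2 fold change of -1.45 ± 0.23 (SE, edgeR adjusted p = 0.00416). In each of these 7 genes every treated library lay below every pECDC library. Oasl2 was at 0.975, 0.351 and 0.842 FPKM, Rtp4 at 1.15, 0.469 and 1.32 FPKM and Xaf1 at 0.973, 0.395 and 0.956 FPKM, and their log2 fold changes were -1.44, -1.46 and -1.04. Irgm1 was lower with a log2 fold change of -1.29 ± 0.12 (SE, edgeR adjusted p = 0.000644).

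The remaining lower members changed by less. Trim25 was at 8.90, 8.40 and 8.42 FPKM in treated cells, a log2 fold change of -0.48 ± 0.06 (SE, edgeR adjusted p = 0.00217). H2-D1 was at 56.2, 52.1 and 56.5 FPKM, a log2 fold change of -0.47 ± 0.07 (SE, edgeR adjusted p = 0.00326). B2m was at 514, 529 and 553 FPKM in pECDCs, 512, 514 and 462 FPKM in iECDCs and 376, 346 and 418 FPKM in treated cells, a log2 fold change of -0.48 ± 0.09 (SE, edgeR adjusted p = 0.00851). The heavy chain H2-D1 and the light chain B2m were thus both lower in treated cells than in pECDCs, while H2-K1 was not called (log2 fold change -0.30 ± 0.25, SE). Ddx58 was at 6.25, 5.13 and 6.49 FPKM, a log2 fold change of -0.37 ± 0.11 (SE, edgeR adjusted p = 0.038). Ifi35 was at 7.96, 9.34 and 9.55 FPKM in pECDCs, 6.60, 7.15 and 8.25 FPKM in iECDCs and 6.83, 6.66 and 6.95 FPKM in treated cells, a log2 fold change of -0.38 ± 0.11 (SE, edgeR adjusted p = 0.0301). Ifi27 was at 77.5, 72.9 and 85.0 FPKM in pECDCs, 78.6, 89.6 and 67.4 FPKM in iECDCs and 58.3, 35.3 and 59.9 FPKM in treated cells, with a log2 fold change of -0.61 ± 0.20 (SE) and an edgeR adjusted p just under the threshold, 0.05 when rounded. Besides Irf1 and Gbp2, the third higher member was Psmb9, a log2 fold change of 1.01 ± 0.30 (SE, edgeR adjusted p = 0.0369). Of the 20 members called, 12 kept their call in all 6 fits that left out a library. Irf1 was called in 4 of the 6, Oasl2 and Rtp4 in 3, Ddx58 and Ifi35 in 2, and Xaf1, Psmb9 and Ifi27 in 1. Without SB431542 2, 16 members were higher (background 31.7%) and 19 lower (background 32.3%). Without pECDC 1, 2 or 3, 1, 1 and 2 were higher (background 8.64%, 8.96% and 8.73%) and 13, 11 and 11 lower (background 8.45%, 8.53% and 8.50%). Without SB431542 1, 2 were higher (background 11.3%) and 12 lower (background 10.9%), and without SB431542 3, 2 were higher (background 12.1%) and 14 lower (background 11.6%).

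Proteasomes carry the catalytic subunits PSMB5, PSMB6 and PSMB7, and in the immunoproteasome PSMB8, PSMB9 and PSMB10 take their places. The constitutive subunits are named as the counterparts of the inducible ones. Psmb5 was at 131, 131 and 129 FPKM in pECDCs, 142, 136 and 147 FPKM in iECDCs and 84.7, 126 and 82.0 FPKM in treated cells. In SB431542-treated cells against iECDCs its log2 fold change was -0.53 (edgeR adjusted p = 0.0442), that of Psmb7 was -0.69 (edgeR adjusted p = 0.0153), and Psmb6, at -0.33, did not pass the test. Without SB431542 2 all 3 were lower, with log2 fold changes of -0.76, -0.90 and -0.53 for Psmb5, Psmb7 and Psmb6. SB431542 2 was the highest treated library for all 3 constitutive subunits and the lowest for Psmb8 and Psmb9. Psmb10, the most abundant of the inducible subunits, was at 13.2 ± 0.500, 12.6 ± 1.65 and 14.7 ± 0.799 FPKM (SD, n = 3) and was called in none of the 3 comparisons by edgeR, with unadjusted p of 0.517, 0.12 and 0.0792. Psme1 and Psme2, which form an activator cap of the proteasome, were higher in treated cells than in iECDCs, with log2 fold changes of 0.72 and 0.71. Psme2 was lower in iECDCs than in pECDCs (-0.45), and Psme1 was higher in treated cells than in pECDCs (0.47).

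**Figure D5:**
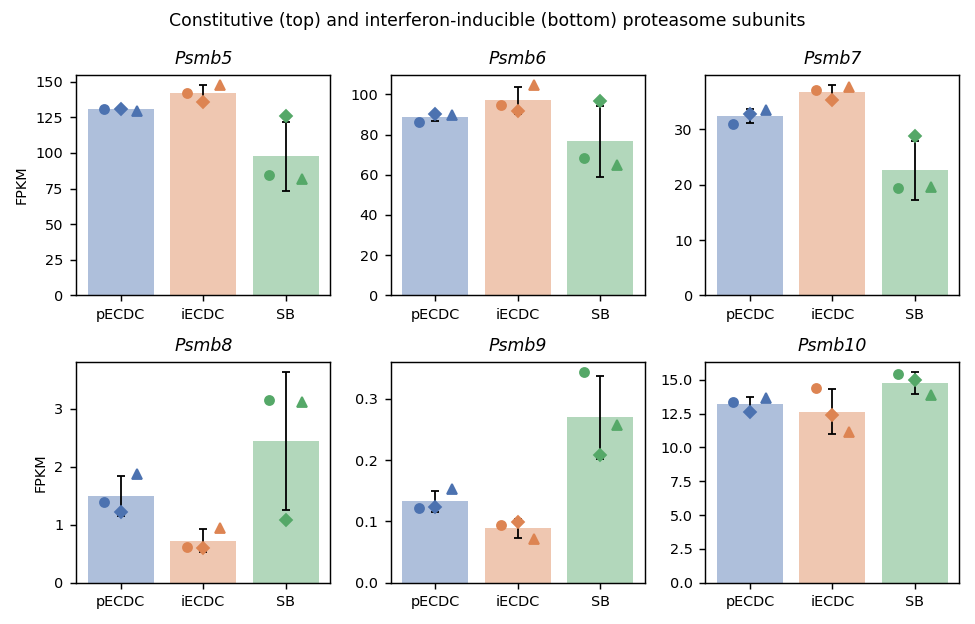
FPKM of the constitutive (top) and interferon-inducible (bottom) catalytic proteasome subunits; bars are means of 3 libraries from 0, error bars are 1 SD, and circles, diamonds and triangles are replicates 1, 2 and 3. SB431542 2 (diamond) is the highest treated library for Psmb5, Psmb6 and Psmb7 and the lowest for Psmb8 and Psmb9.

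The interferon genes on the list that was read had at most 1 count in a library, and other interferon genes were not read. Ifnb1, Ifna1, Ifna2, Ifna4, Ifna5, Ifne, Ifng, Ifnl2 and Ifnl3 had 0 counts in all 9 libraries, which allows up to 3 counts per library and covers counting error only, and Ifnk had 1 count in pECDC 1. The same list held 2 interleukins. Il6, a cytokine that signals through JAK kinases and STAT3, was at 26.5 ± 1.02, 17.9 ± 6.17 and 8.68 ± 2.19 FPKM (SD, n = 3), a log2 fold change of -1.04 ± 0.28 (SE, edgeR adjusted p = 0.0283) in treated cells against iECDCs. Il15, a growth factor of lymphocytes, was lower in treated cells than in pECDCs, a log2 fold change of -1.30 ± 0.19 (SE, edgeR adjusted p = 0.00335).

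In iECDCs against pECDCs 3 of 15 genes tested of the receptor, kinase and transcription factor list were lower (background 9.21%), Jak2 and Socs3 among them, and 0 were higher by edgeR, nor at an unadjusted p under 0.05 or by DESeq2. In SB431542-treated cells against iECDCs 9 of 15 were higher by edgeR (background 16.0%) and by DESeq2, and 10 at an unadjusted p under 0.05, while 0 were lower by any of the 3 (background 14.0%). Without SB431542 2, 10 were higher (background 25.3%) and 0 lower by edgeR (1 at an unadjusted p under 0.05), and without iECDC 3, 7 were higher (background 13.5%). Ifnar1 and Ifnar2, the type I receptor chains, were at 11 ± 1.22 and 11.3 ± 0.671 FPKM in iECDCs and at 16.1 ± 1.51 and 15.3 ± 2.22 FPKM in treated cells (SD, n = 3). Their log2 fold changes were 0.56 (edgeR adjusted p = 0.0126) and 0.44 (edgeR adjusted p = 0.0373), against -0.16 and -0.04 for iECDCs against pECDCs, which did not pass the test. For the interferon γ receptor, Ifngr2 was higher in treated cells, a log2 fold change of 0.39 ± 0.11 (SE, edgeR adjusted p = 0.0346), and Ifngr1 was not called (0.08). The kinases were all higher, Jak1 with a log2 fold change of 0.48 ± 0.11 (SE, edgeR adjusted p = 0.0157), Jak2 with a log2 fold change of 1.02 ± 0.11 (SE, edgeR adjusted p = 0.00114) and Tyk2 with a log2 fold change of 0.68 ± 0.15 (SE, edgeR adjusted p = 0.0149). Socs3, a feedback inhibitor of these kinases, rose from 18.1 ± 0.723 to 38.1 ± 7.97 FPKM (SD, n = 3), a log2 fold change of 1.08 ± 0.16 (SE, edgeR adjusted p = 0.00311), and Irf2, a competitor of Irf1 for its sites, was higher by 0.77. Against pECDCs, 8 of 15 were higher (background 17.9%) and 0 lower by edgeR (0 at an unadjusted p under 0.05 and 0 by DESeq2), with Jak1 at a log2 fold change of 0.58 ± 0.06 (SE, edgeR adjusted p = 0.00121), Socs3 at 0.75, Tyk2 at 0.48 and Jak2 at 0.47. Without SB431542 2, 11 were higher (background 31.7%) and 1 lower.

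Further interferon-stimulated genes outside the 44 members were read from a list of 58, of which 48 could be tested. In iECDCs against pECDCs 18 were lower (background 9.21%) and 1 was higher (background 7.21%). Slfn8 (a log2 fold change of -1.63 ± 0.18, SE, edgeR adjusted p = 0.000562), Trim34a (a log2 fold change of -1.04 ± 0.19, SE, edgeR adjusted p = 0.0064), Trim30a (a log2 fold change of -0.99 ± 0.17, SE, edgeR adjusted p = 0.00482) and Sp100 (a log2 fold change of -0.93 ± 0.13, SE, edgeR adjusted p = 0.00178) had the largest changes among those of at least 1 FPKM. Ifi47, an immunity-related GTPase, was the 1 higher gene, at 0.92, named here after its value was seen. In SB431542-treated cells against iECDCs 6 of 47 were higher (background 16.0%) and 6 lower (background 14.0%), and without SB431542 2, 15 of 48 were higher (background 25.3%) and 8 lower (background 24.8%). These shares are near the background. Ifi27l2a fell from 29.3 ± 2.62 to 2.91 ± 1.03 FPKM (SD, n = 3), a log2 fold change of -3.30 ± 0.26 (SE, edgeR adjusted p = 0.000395). Apol9b (a log2 fold change of -2.07 ± 0.16, SE, edgeR adjusted p = 0.000395) and Ifi47 (a log2 fold change of -1.74 ± 0.15, SE, edgeR adjusted p = 0.000572) were lower too. Uba7, the enzyme that activates ISG15 for conjugation, rose from 0.737 ± 0.149 to 3.78 ± 1.82 FPKM (SD, n = 3), a log2 fold change of 2.37 ± 0.40 (SE, edgeR adjusted p = 0.00489), while Isg15 was not called in that comparison (-0.23 ± 0.43, SE). Against pECDCs, 15 of 48 were lower (background 17.0%) and 1, Uba7, was higher (log2 fold change 1.65, background 17.9%), and without SB431542 2, 20 were lower (background 32.3%) and 13 higher (background 31.7%). The largest decreases in that comparison were those of Ifi27l2a (-2.80), Apol9b (-2.35) and Trim30a (-1.79) among genes of at least 1 FPKM.

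Of 12 further interferon-inducible GTPases, 4 could be tested in iECDCs against pECDCs and 3 were lower (background 9.21%). Irgm2 was among them (a log2 fold change of -1.20 ± 0.15, SE, edgeR adjusted p = 0.000937), as was Gvin1 (a log2 fold change of -0.71 ± 0.17, SE, edgeR adjusted p = 0.0202). In treated cells against iECDCs 2 of 3 were higher (background 16.0%), Irgm2 (a log2 fold change of 1.23 ± 0.38, SE, edgeR adjusted p = 0.041) and Gbp9 (a log2 fold change of 1.14 ± 0.30, SE, edgeR adjusted p = 0.0238), and Gbp9 was also higher than in pECDCs (0.83). Without SB431542 2, Irgm2, Gbp9 and Gvin1 were among the genes called higher than in iECDCs (background 25.3%), with log2 fold changes of 1.58, 1.38 and 0.96. Of the Gbp family, Gbp6 was called higher there too (7.31) and Gbp8 was not called (0.13). Both are named here after their values were seen. Irgm2 shares bases with Igtp, so the values of Irgm2 are uncertain. Of the further class I genes, 17 were tested, and 5 were lower (background 9.21%) and 1 higher (background 7.21%) in iECDCs. H2-T23, a nonclassical class I molecule, was at 5.57 ± 0.810, 2.69 ± 0.144 and 8.17 ± 2.88 FPKM (SD, n = 3), a log2 fold change of -1.06 ± 0.13 (SE, edgeR adjusted p = 0.000948) in iECDCs against pECDCs and a log2 fold change of 1.61 ± 0.27 (SE, edgeR adjusted p = 0.00493) in treated cells against iECDCs. Erap1, which trims peptides in the endoplasmic reticulum, had log2 fold changes of -0.55 ± 0.11 (SE) and 0.85 ± 0.17 (SE) in these comparisons, and Tapbpl, a relative of tapasin, -0.57 ± 0.17 (SE) and 0.89 ± 0.25 (SE). In all, 6 of the 17 were higher (background 16.0%) and 3 lower (background 14.0%) in treated cells against iECDCs, and 7 (background 25.3%) and 4 (background 24.8%) without SB431542 2. The 17 include the constitutive subunits Psmb5, Psmb6 and Psmb7 described above. Without SB431542 2, the 4 lower genes were these subunits and Psme3 (log2 fold change -0.90). Against pECDCs, 4 of the 17 were higher (background 17.9%) and 2 lower (background 17.0%), among them Cd1d1 (0.51) and H2-M3 (0.46) higher and Psmb7 (-0.51) lower. Without SB431542 2 the counts were 9 (background 31.7%) and 7 (background 32.3%).

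Of the innate sensors and adaptors that are not members, 11 of 12 were tested. In iECDCs against pECDCs, Aim2, a sensor of cytosolic DNA, was higher from 0.189 ± 0.0649 to 1.03 ± 0.397 FPKM (SD, n = 3), a log2 fold change of 2.42 ± 0.36 (SE, edgeR adjusted p = 0.00246), and Eif2ak2 (PKR), a kinase activated by double-stranded RNA, was lower, a log2 fold change of -0.42 ± 0.08 (SE, edgeR adjusted p = 0.00941). In treated cells against iECDCs, Ikbke was higher (a log2 fold change of 0.92 ± 0.24, SE, edgeR adjusted p = 0.0219) and Mb21d1 (cGAS) was lower (a log2 fold change of -0.71 ± 0.17, SE, edgeR adjusted p = 0.0174). Some class II presentation genes were near absent, with H2-Aa at 0 counts, Cd74 at 0 to 7 and the class II regulator Ciita at 0 to 4 in all 9 libraries. Of the 15 genes of the class II list, 4 or 5 had enough counts to be tested in each comparison. H2-Ab1 and H2-DMa could be tested in treated cells against iECDCs without SB431542 2 and were not called (log2 fold changes -0.87 and 0.36). On the same list, the costimulator Cd80 was at 5.59 ± 0.378, 3.03 ± 0.174 and 1.22 ± 0.397 FPKM (SD, n = 3) and was lower in each comparison, with log2 fold changes of -0.90, -1.30 and -2.18. H2-DMb1, a chain of the class II peptide loader, was higher in iECDCs (a log2 fold change of 1.05 ± 0.23, SE, edgeR adjusted p = 0.0141).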

How the data were processed

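RNA of 9 libraries from 3 groups of 3 was sequenced. For each of 54532 genes the authors deposited raw counts, not normalized, and FPKM values (fragments scaled to transcript length and to library size). Their notes name Bowtie2 2.0.6, TopHat2 2.0.9 and the mm9 build, but the gene coordinates in the deposited table are those of GRCm38: 53462 of the 54532 genes have the start and end of GENCODE vM21. The counting program and its use of strand are not given in the sources used here. The table's own fold changes, p-values and group means were not used, and a second deposited table holds the same annotation without measurements.

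Counts were tested with edgeR 4.0.16 (quasi-likelihood test, TMM scaling, filterByExpr with a minimum count of 10 and a minimum total of 15, R 4.3.3) between pairs of groups, each fit holding the 6 libraries compared. p-values were adjusted by the Benjamini-Hochberg method over all genes tested, and a gene was called at an adjusted p under 0.05. FPKM served for levels only, as the mean ± SD of 3 libraries. Total counts ran from 16568306 to 23951392 per library, so a gene at 0 counts could still hold up to 3 counts' worth of RNA in each. On counts simulated for iECDCs against pECDCs in which 200 of 13576 genes had a log2 change of 1, 153 of the 200 were called by edgeR, as were 10 unchanged genes. Promoter sequences were taken from RefSeq (GRCm38.p6).

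Alternatives were DESeq2 1.42.0, limma 3.58.1 on log2(FPKM + 1) and log2(FPKM + 0.1), RLE and upper-quartile scaling, other filters, all 9 libraries in one fit, the replicate number as a block, and each library left out. Leaving out SB431542 2 together with iECDC 3, and refitting the other gene lists without either, were added after seeing the data. The members and all gene lists were chosen with earlier results of these data known. Members with an adjusted p under 0.05 in any comparison and a group mean of at least 1 FPKM were given by library and the others by ranges and counts. From each other list, up to 4 called genes per comparison with the largest change and at least 1 FPKM in the higher group were named, beside the receptors and kinases, and exceptions are marked. Mnda, Pyhin1, Ifgga3, H2-L and Emr1 matched no symbol of the table. One gene of the receptor, kinase and transcription factor list entered the fits and the counts, and its own values are not reported here.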

Additional observations from a re-analysis of the deposited data

How the results depend on the processing

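No member was higher in iECDCs against pECDCs under any alternative that was run (0 of those tested in each). Lower members numbered 28 to 33 under DESeq2, RLE and upper-quartile scaling, both other filters, limma and the replicate block, against 32. Over all genes these settings called from 1791 (block) to 3088 (no filter) in both directions, against 2258. With all 9 libraries in the fit 8 members were lower (background 3.26%) and 671 genes were called. Leaving out 1 library gave 18 to 35 lower members and 1036 to 4467 called genes. In SB431542-treated cells against iECDCs, 15 members were higher with no filter, 6 with the replicate block and 5 with limma at either pseudocount, against 9. All genes called there, in both directions, numbered 4840, 3038, 3803 (pseudocount 1) and 3881 (pseudocount 0.1), against 4061. By DESeq2 and with all 9 libraries 8 members were lower, against 5, where 4480 and 5850 genes were called. Leaving out 1 library gave 2 to 19 higher members, 4 to 8 lower members and 1707 to 7001 called genes, against 4061, and leaving out iECDC 3 with SB431542 2 gave 24, 8 and 8951. Against pECDCs, 2 members were higher with at least 10 counts in every library, with limma at a pseudocount of 1 and with the block, against 3. In these settings 4500, 4661 and 3886 genes were called in both directions, against 4881. Leaving out 1 library gave 1 to 16 higher members, 11 to 19 lower members and 2453 to 9188 called genes. Where a fit left out a library, it had 1 library fewer in 1 group; the cause of the other shifts was not tested.

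The deviations of same-numbered libraries from the group means correlated between -0.24 and 0.04, and those of differently numbered libraries between -0.11 and 0.21. With so few libraries, these values cannot show whether same-numbered libraries shared a culture, mouse or batch. With the replicate number as a block, 31 members were lower in iECDCs, 6 higher and 5 lower in treated cells against iECDCs, and 2 higher and 15 lower against pECDCs, with 1791, 3038 and 3886 genes called.

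Single values changed sign only for members that were not called with all libraries. With a library left out, or SB431542 2 and iECDC 3 together, the log2 fold change in iECDCs against pECDCs ranged from -0.12 to 0.09 for Ifi27, -0.01 to 0.26 for Rsad2, -0.03 to 0.15 for Irgm1 and -0.18 to 0.02 for Psmb10. In treated cells against iECDCs it ranged from -0.12 to 0.34 for Irf9, -0.20 to 0.66 for Oasl2, -0.11 to 0.62 for Gbp3, -0.47 to 0.39 for Rtp4, -0.51 to 0.51 for Isg15, -0.75 to 0.10 for Irf7, -0.17 to 0.02 for Ifi35 and -0.55 to 0.06 for Xaf1. Irf9 was also -0.02 with the block and with limma at a pseudocount of 1, and -0.03 at 0.1. In treated cells against pECDCs it ranged from -0.13 to 0.48 for Parp14, -0.36 to 0.55 for Iigp1, -0.43 to 0.34 for Cmpk2, -0.27 to 0.23 for Parp9, -0.37 to 0.43 for Gbp7, -0.08 to 0.56 for Ifit3, -0.16 to 0.37 for Dtx3l, -0.29 to 0.22 for Stat2, -0.38 to 0.14 for Ifit1 and -0.03 to 0.09 for Samhd1. Parp14 and Iigp1 were also -0.03 and -0.01 with the block, and -0.06 and -0.07 with limma at 0.1. Stat2, Parp9 and Gbp7 changed sign and passed the test without SB431542 2. Across members and alternatives, among values that kept their sign, 78, 47 and 40 lost their call and 7, 55 and 24 gained one in the 3 comparisons. Values that changed sign, such as those of Stat2, Parp9 and Gbp7, are not in these counts.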
